A study of Homo sapiens with 9 samples.

Results

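The 10 genes described here encode the subunits of the transcription factor NF-kB and its inhibitors. They were taken by gene name from 15570 genes listed, with no threshold on their values. RELA, RELB, REL, NFKB1 and NFKB2 are the subunits, and NFKBIA, NFKBIB, NFKBIE, NFKBIZ and TNFAIP3 were grouped as inhibitors. The study sequenced RNA from hCMEC/D3, an established human brain microvascular endothelial line, in 9 libraries. The 3 control libraries came from cells given neither treatment. The 3 libraries labelled OGD came from cells deprived of oxygen and glucose for 4 h, in an atmosphere of 95% N2 and 5% CO2. The 3 libraries labelled OGD/R came from cells that had the same deprivation and then 16 h with normal medium in 21% O2 (reoxygenation). The labels name no control for the later time, so time in culture and reoxygenation cannot be told apart. In these bulk samples fewer cells of a type and less RNA per cell cannot be told apart either.

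NF-kB is a dimer of Rel-family proteins. In resting cells IkB proteins hold it in the cytoplasm. Signals from receptors for tumour necrosis factor, interleukin 1 or bacterial products activate the IkB kinase, IkB is degraded, and the dimer enters the nucleus. A second route, through the kinase NIK, processes the NFKB2 precursor and releases RELB dimers. Several inhibitor and subunit genes are themselves NF-kB targets, which makes the pathway feed back on itself. In brain endothelium NF-kB is known for switching on adhesion molecules, cytokines and chemokines.

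Values are FPKM, fragment counts divided by transcript length and library total, so levels of different genes can be compared. Summed FPKM ranged from 454237 to 537878 in control, from 585947 to 605818 in OGD and from 442696 to 449248 in OGD/R. The number of reads is unknown, so no counting error is given. Control replicate 3 stood apart from the other controls, at 7.05 on the first principal component against -14.5 and -9.97, towards the OGD libraries (41.6 to 46.2) and away from OGD/R (-47.1 to -30.2). The trend of values with transcript length also moved with the groups, from -0.0709 to 0.0554 log2 units per doubling of length in control, from -0.202 to -0.150 in OGD and from 0.131 to 0.228 in OGD/R. Its part in the results was not tested beyond the alternatives named below. Of 14 endothelial markers 13 were listed and 3 were at 1 FPKM or more in every control library, a count that was 3 in OGD and 6 in OGD/R. The summed endothelial markers ranged from 49.4 to 61.7 FPKM in control, from 36.0 to 37.2 in OGD and from 105 to 118 in OGD/R. VWF, KDR, TEK, ERG and CLDN5 stayed at or below 0.191 FPKM in every library, so these defining markers were near 0. CDH5 reached 2.62 FPKM and PECAM1 1.55, while MCAM reached 64.9, ENG 37.955 and EGFL7 14.8. Of 8 fibroblast, pericyte and smooth muscle markers, 4 were at 1 FPKM or more in all 3 libraries of each group, and their summed level ranged from 14.3 to 17.8 FPKM in control, from 9.45 to 10.8 in OGD and from 19.9 to 22.5 in OGD/R. Summed leukocyte markers ranged from 0.909 to 1.32 FPKM in control, from 0.732 to 0.926 in OGD and from 1.79 to 2.55 in OGD/R, most of it CD14, while PTPRC was at most 0.1004. The part of these markers in the results was not tested.

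Tests covered the 10818 genes that reached 1 FPKM in 3 or more libraries, and 9 of the 10 members were among them. REL was not. A gene is called higher or lower where limma's adjusted p over all genes tested is under 0.05. Fold changes are log2 differences of FPKM + 1. Over all genes tested, the median fold change was -0.31 in OGD against control, 0.39 in OGD/R against OGD and 0.07 in OGD/R against control. A relative value is a fold change less that median. The 3 comparisons share libraries.

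After deprivation 5 of the 9 tested members were lower than in control, NFKBIA, NFKBIZ, RELA, NFKB2 and NFKB1, and 0 were higher. Lower calls took 46.7% and higher calls 11.3% of all genes in that comparison, so the members' count lay near the background. After reoxygenation 7 members were higher than in OGD and 0 lower (53.3% higher and 17.4% lower of all genes). Against control, 8 of 9 were higher in OGD/R and 0 lower, where 24.7% of all genes were higher and 16.5% lower. NFKBIE was not called in any of the comparisons. The members' median fold change was -0.36 in OGD against control (relative median -0.05), 1.11 in OGD/R against OGD (relative median 0.73) and 0.61 in OGD/R against control (relative median 0.54).

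Scaling the libraries by the median of ratios changed the first of these counts. It gave 3 members higher (NFKBIB, NFKBIE and RELB) and 4 lower (NFKBIA, NFKBIZ, RELA and NFKB2) in OGD against control, with 26.5% of all genes higher and 23.1% lower. Against OGD, 6 members were then higher in OGD/R and 1 lower (32.6% and 34.2% of all genes). Against control, 7 were higher and 0 lower (22.1% and 23% of all genes). Without control replicate 3 the counts were 5 lower, 7 higher and 6 higher in the same order of comparisons. Without that library more genes of all tested were lower in OGD against control than with it. More were also higher in OGD/R against OGD, so these member counts do not stand apart from a wider shift.

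**Figure D1:**
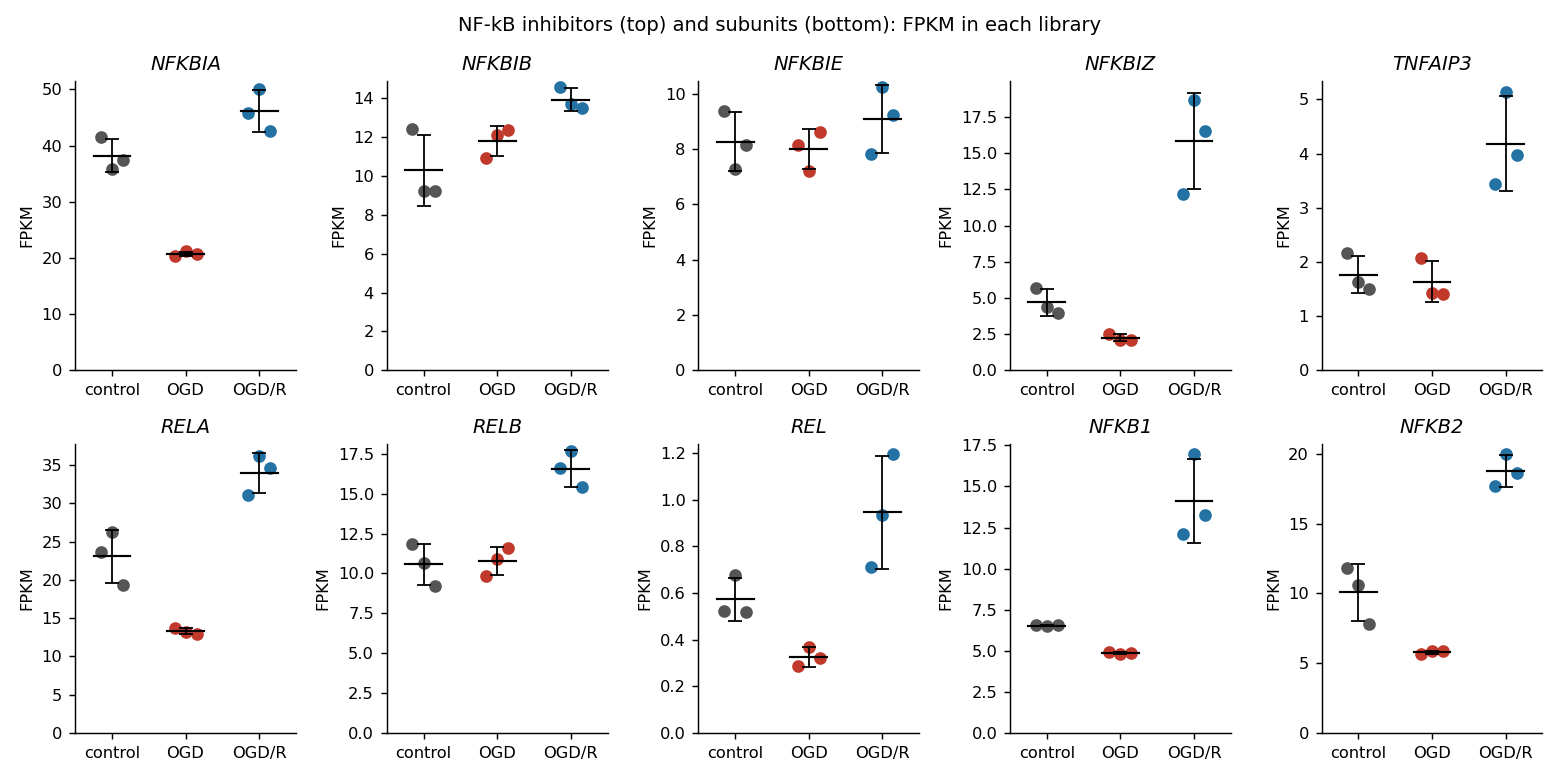
FPKM of each member in each library, with control, OGD and OGD/R on the horizontal axis. Points are libraries, the horizontal bar is the mean and the whisker 1 SD (n = 3). NFKBIA and RELA were the most abundant of the 10 in every group, and NFKBIZ stood at 12.2 to 18.7 FPKM in OGD/R against 3.96 to 5.71 in control.

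NFKBIA encodes IkB-alpha, the inhibitor that is degraded and resynthesised fastest in the classical pathway. It was the most abundant member in all 3 groups. It measured 41.5, 35.8 and 37.4 FPKM in control replicates 1 to 3, 20.3, 21.1 and 20.7 in OGD, and 45.7, 50.01 and 42.6 in OGD/R. The OGD libraries lay below all others, and every OGD/R library lay above every control. NFKBIA fell in OGD against control (log2 fold change -0.85 with SE 0.09 and limma's adjusted p = 2.76e-05, or -0.54 relative to all genes). It rose in OGD/R against OGD (1.11, adjusted p = 9.49e-07). The rise over control was small (0.26, adjusted p = 0.0372, relative value 0.20) and was no longer called with median-of-ratios scaling (adjusted p = 0.110), without the intensity trend (0.0602), with only those groups fitted (0.0951) and without any 1 of 7 libraries (adjusted p from 0.0562 to 0.121), control replicate 3 among them (0.0724). The gene (NCBI Gene 4792) lies on chromosome 14, 35401513 to 35404749 of GRCh38.

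The 250 bases before the NFKBIA start are shown because this promoter is the textbook case of feedback by NF-kB. The sequence is RefSeq's for GRCh38.p14, minus strand, chr14:35404750-35404999, read 5′ to 3′ towards the gene. Capitals mark the single match to the kappaB consensus, the site NF-kB dimers bind, which begins 81 bases before the start.

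NFKBIA: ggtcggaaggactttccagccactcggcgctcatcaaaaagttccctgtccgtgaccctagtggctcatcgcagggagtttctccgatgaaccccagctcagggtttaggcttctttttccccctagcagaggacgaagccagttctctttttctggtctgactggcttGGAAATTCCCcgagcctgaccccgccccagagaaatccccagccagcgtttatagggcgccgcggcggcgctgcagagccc

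NFKBIZ encodes IkB-zeta, an atypical nuclear IkB protein that is itself induced by NF-kB and is needed for a second wave of targets such as IL6. It measured 5.71, 4.40 and 3.96 FPKM in control, 2.51, 2.08 and 2.11 in OGD, and 12.2, 18.7 and 16.6 in OGD/R. The 3 groups did not overlap. NFKBIZ fell in OGD against control (-0.81, SE 0.17, adjusted p = 0.00155, relative value -0.50). It then rose in OGD/R, by 2.36 over OGD (SE 0.17, adjusted p = 3.12e-07) and by 1.56 over control (SE 0.17, adjusted p = 4.40e-05), the largest fold change among the tested members in both comparisons. These rises stood at percentiles 99.8 and 99.6 of all genes tested. All 3 calls held under each alternative in which the gene was tested. The gene (NCBI Gene 64332, chromosome 3, 101827990 to 101861022) overlaps NXPE3 on the genome, and whether strand was used in counting is not given. The OGD/R libraries held 6.22 to 7.07 FPKM of NXPE3, against 6.96 to 9.89 in control and 3.24 to 4.53 in OGD. NXPE3 was thus lowest in OGD, as NFKBIZ was, but not above control after reoxygenation. The part of NXPE3 reads in the NFKBIZ values was not tested.

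TNFAIP3 encodes A20, a ubiquitin-editing enzyme that shuts off signalling upstream of the IkB kinase. It measured 2.16, 1.63 and 1.51 FPKM in control, 2.07, 1.42 and 1.41 in OGD, and 3.44, 5.15 and 3.97 in OGD/R. Control and OGD overlapped, and all OGD/R libraries were higher than both. TNFAIP3 was not called in OGD against control (-0.07, 95% interval -0.43 to 0.28, adjusted p = 0.715). It rose by 0.97 over OGD (adjusted p = 0.000180) and by 0.90 over control (adjusted p = 0.00106). Its levels were low beside the 1 FPKM added before taking logs, so its fold change on this scale understates the difference. The same holds for other members at low levels, such as REL and, in OGD, NFKBIZ. The gene (NCBI Gene 7128, chromosome 6, 137866349 to 137883312) overlaps the non-coding gene WAKMAR2, which is not analysed here.

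NFKBIB and NFKBIE encode IkB-beta and IkB-epsilon, which also hold NF-kB dimers in the cytoplasm. NFKBIB (NCBI Gene 4793, chromosome 19, 38899666 to 38908889) measured 12.4, 9.20 and 9.23 FPKM in control, 10.9, 12.1 and 12.4 in OGD, and 14.6, 13.7 and 13.5 in OGD/R. The OGD values lay within the control range, and OGD/R lay above both groups. NFKBIB was not called in OGD against control (0.19, adjusted p = 0.195). It was called higher there after median-of-ratios scaling (0.54, adjusted p = 0.00333), quantile normalization (0.53, adjusted p = 0.00381) or removal of the length trend (0.31, adjusted p = 0.0301), and without control replicate 1 (0.32, adjusted p = 0.0255). In OGD/R it rose over control (0.42, adjusted p = 0.0177), a call that was lost without control replicate 2 (adjusted p = 0.0513), control replicate 3 (0.0522) or OGD/R replicate 1 (0.0539). NFKBIE (NCBI Gene 4794, chromosome 6, 44258166 to 44265551) measured 9.38, 7.27 and 8.16 FPKM in control, 8.16, 7.20 and 8.63 in OGD, and 7.81, 10.2 and 9.23 in OGD/R. All 3 groups of NFKBIE overlapped. Its fold changes were -0.04 in OGD against control (95% interval -0.33 to 0.25), 0.16 in OGD/R against OGD (-0.13 to 0.45) and 0.12 in OGD/R against control (-0.17 to 0.41). After median-of-ratios scaling NFKBIE was called higher in OGD against control (0.29, adjusted p = 0.0315) and lower in OGD/R against OGD (-0.26, adjusted p = 0.0379), and quantile normalization gave the same directions and calls.

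Among the subunits, RELA encodes p65, the main activating subunit of the classical pathway. It measured 23.7, 26.2 and 19.3 FPKM in control, 13.7, 13.1 and 13.0 in OGD, and 31.1, 36.2 and 34.6 in OGD/R. The 3 groups did not overlap. RELA fell in OGD (-0.74, SE 0.11, adjusted p = 0.000271, relative value -0.43), and rose in OGD/R over OGD (1.29, adjusted p = 1.52e-06) and over control (0.55, adjusted p = 0.00259). The gene (NCBI Gene 5970) lies on chromosome 11, 65653601 to 65663857, and overlaps the non-coding gene RELA-DT.

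NFKB1 encodes p105, the precursor of the DNA-binding subunit p50. Its controls were close together at 6.57, 6.48 and 6.55 FPKM, with 4.94, 4.80 and 4.89 in OGD and 12.1, 17.0 and 13.3 in OGD/R. The 3 groups did not overlap. The fall in OGD was small (-0.36, SE 0.13, adjusted p = 0.0295) and close to the median of all genes (relative value -0.05). It was no longer called with median-of-ratios scaling (-0.04, adjusted p = 0.729), quantile normalization (0.04, adjusted p = 0.788) or removal of the length trend (-0.04, adjusted p = 0.779), and without control replicate 1 (adjusted p = 0.0538) or OGD replicate 1 (0.0634), 2 (0.0811) or 3 (0.0725). In OGD/R NFKB1 rose by 1.35 over OGD (adjusted p = 2.33e-06) and by 0.99 over control (SE 0.13, adjusted p = 0.000130). The gene (NCBI Gene 4790, chromosome 4, 102501359 to 102617302) overlaps 3 non-coding genes, among them NFKB1-AS1.

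NFKB2 encodes p100, which acts as an IkB-like inhibitor until it is processed to p52 in the NIK route. It measured 11.8, 10.6 and 7.77 FPKM in control, 5.66, 5.84 and 5.86 in OGD, and 17.7, 19.998 and 18.6 in OGD/R. Control replicate 3 was the lowest control and still above every OGD library. NFKB2 fell in OGD (-0.69, SE 0.14, adjusted p = 0.00126, relative value -0.38). It rose in OGD/R by 1.54 over OGD (adjusted p = 1.45e-06) and by 0.85 over control (adjusted p = 0.000485). The gene (NCBI Gene 4791) lies on chromosome 10, 102394110 to 102402529.

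RELB (NCBI Gene 5971, chromosome 19, 45001464 to 45038192) encodes the subunit that pairs with p52. It measured 11.8, 10.6 and 9.25 FPKM in control, 9.83, 10.9 and 11.6 in OGD, and 16.6, 17.7 and 15.4 in OGD/R. Control and OGD overlapped, and OGD/R lay above both. RELB was not called in OGD against control (0.03, 95% interval -0.22 to 0.28, adjusted p = 0.842), though it was called higher there after median-of-ratios scaling (0.37, adjusted p = 0.0111) and quantile normalization (0.38, adjusted p = 0.00883). The rise in OGD/R over control was 0.61 (SE 0.12, adjusted p = 0.00151). Over OGD it was 0.58 (adjusted p = 0.000717, relative value 0.19), which was not called with median-of-ratios scaling (adjusted p = 0.234) or quantile normalization (0.217). REL (NCBI Gene 5966, chromosome 2, 60881574 to 60931612), which encodes c-Rel, a subunit best known from lymphocytes, was the least abundant member. It measured 0.523, 0.678 and 0.518 FPKM in control, 0.286, 0.369 and 0.322 in OGD, and 0.710, 0.934 and 1.19 in OGD/R. The REL groups did not overlap, with OGD lowest and OGD/R highest. With no expression filter REL was called in OGD/R against OGD (0.55, adjusted p = 0.00109) and against control (0.30, adjusted p = 0.0379), and not in OGD against control (-0.25, adjusted p = 0.0585).

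**Figure D2:**
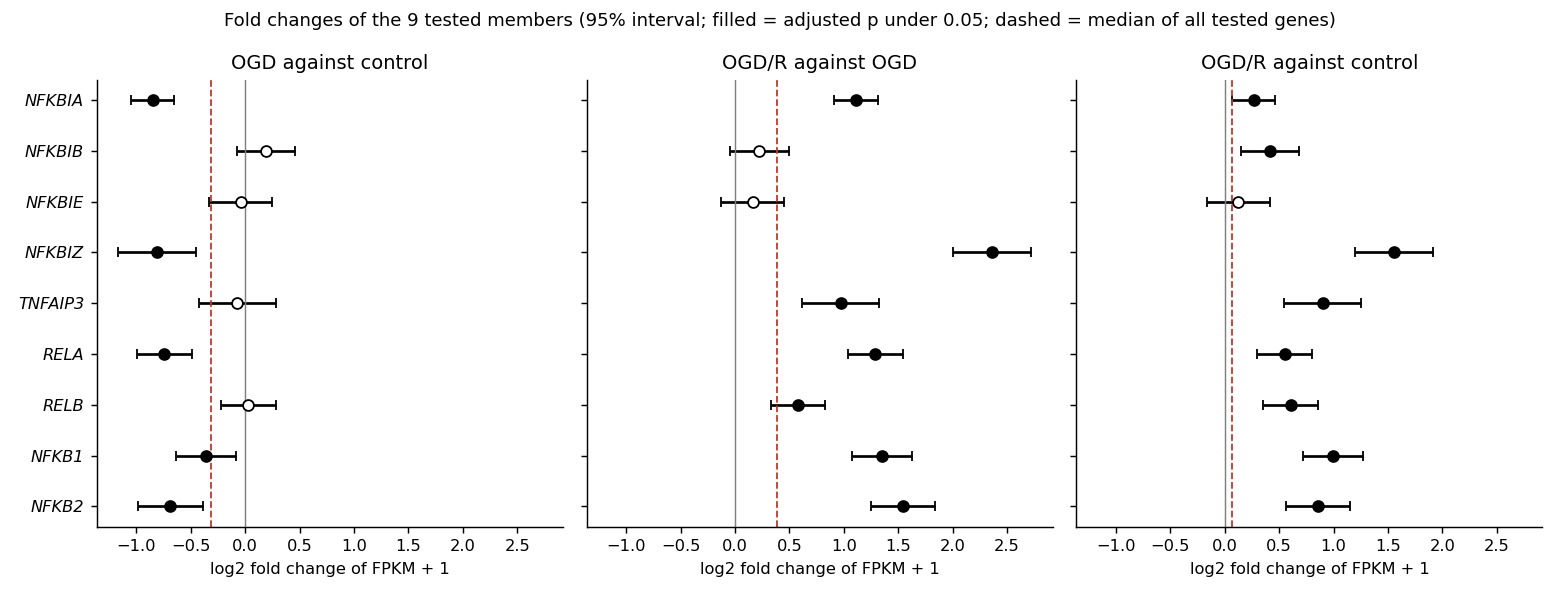
Log2 fold change of FPKM + 1 (horizontal axis) of the 9 tested members in the 3 comparisons, with 95% intervals. Filled points were called, and the dashed line is the median of all genes tested (-0.31, 0.39 and 0.07). NFKBIZ lay farthest right after reoxygenation, at 2.36 over OGD and 1.56 over control, and NFKBIE was open in all 3 panels.

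The order of levels within a library does not depend on scaling between libraries. In control the order was NFKBIA (38.2 FPKM), RELA (23.0), RELB (10.6), NFKBIB (10.3), NFKB2 (10.1), NFKBIE (8.27), NFKB1 (6.53), NFKBIZ (4.69), TNFAIP3 (1.77) and REL (0.573). The neighbours RELB, NFKBIB, NFKB2 and NFKBIE each overlapped the next, and the other neighbours did not. In OGD NFKBIB (11.8 FPKM) and RELB (10.8) overlapped each other and followed RELA (13.3), with NFKB2 (5.79) below NFKBIE (7.999). In OGD/R NFKB2 (18.8 FPKM) came next after RELA (34.0) and did not overlap RELB (16.6). RELB, NFKBIZ (15.8), NFKB1 (14.1) and NFKBIB (13.9) each overlapped the next, and NFKBIB did not overlap NFKBIE (9.09). NFKBIZ thus had rank 8 of 10 in control and OGD and rank 5 in OGD/R.

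Ratios between members within a library are likewise free of the scaling between libraries, though not of a trend with transcript length. With 3 libraries against 3 a 2-sided exact permutation test cannot go below p = 0.10, so they are given as values. RELB per RELA was 0.813 ± 0.0891 in OGD, against 0.462 ± 0.0497 in control and 0.489 ± 0.0445 in OGD/R (mean ± SD of 3 libraries). The OGD ratios, 0.717 to 0.892, were above all others, and control and OGD/R overlapped. NFKBIB per NFKBIA was 0.569 ± 0.0300 in OGD, against 0.268 ± 0.0277 in control and 0.303 ± 0.0250 in OGD/R. NFKBIE per NFKBIA was 0.386 ± 0.0405 in OGD, against 0.216 ± 0.0116 in control and 0.197 ± 0.0237 in OGD/R. So after deprivation NFKBIA transcripts took a smaller share of the summed inhibitors (46.7% ± 1.25) than in control (60.6% ± 1.996) or OGD/R (51.8% ± 2.54). RELA took 54.5% ± 2.76 of summed RELA, RELB and REL in OGD, against 67.3% ± 2.23 in control and 66.0% ± 1.68 in OGD/R.

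Other ratios differed in OGD/R. NFKBIZ per NFKBIA was 0.343 ± 0.0663 there, against 0.122 ± 0.0159 in control and 0.108 ± 0.0135 in OGD, and the lowest library, at 0.267, was above every other. NFKBIA per NFKB1 was 3.31 ± 0.423 in OGD/R, against 5.85 ± 0.422 in control and 4.25 ± 0.146 in OGD, and the 3 groups did not overlap. NFKBIA per RELA overlapped between control and both other groups, at 1.36 ± 0.119 in OGD/R, 1.69 ± 0.295 in control and 1.56 ± 0.0695 in OGD. Summed subunits per summed inhibitors were 0.947 ± 0.0176 in OGD/R, 0.807 ± 0.115 in control and 0.789 ± 0.00789 in OGD. The highest control ratio, 0.937, overlapped the OGD/R range of 0.935 to 0.967. The inhibitor sum holds TNFAIP3 and the nuclear NFKBIZ, which made up 17.7% of it in OGD/R against 7.38% in control. The subunit sum holds NFKB2, whose product is IkB-like until processed. The ratio is therefore no measure of the balance between NF-kB and its inhibitors.

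**Figure D3:**
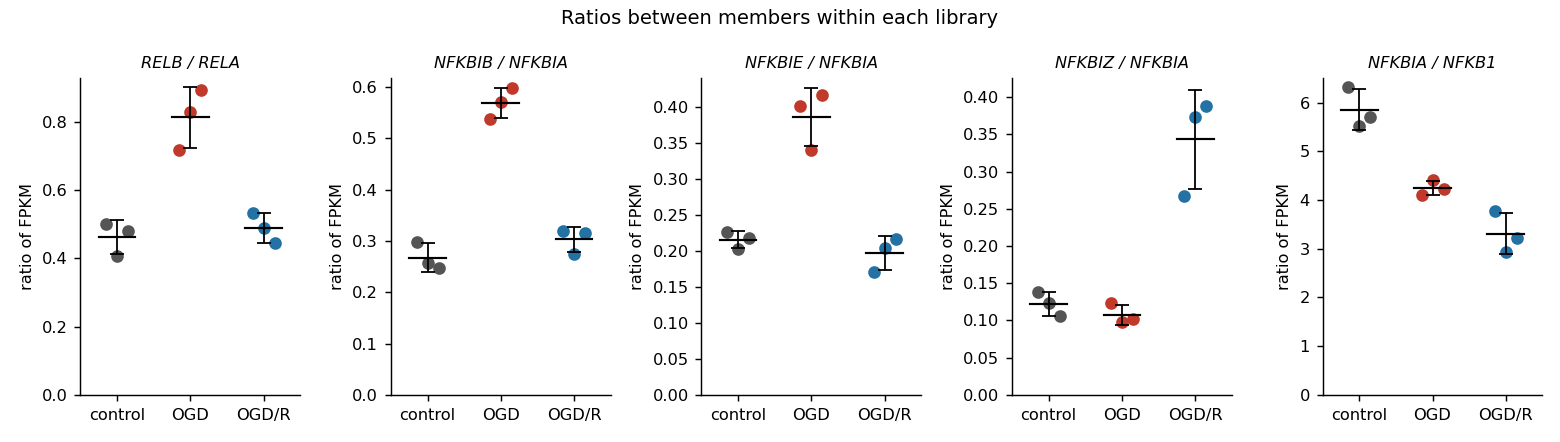
Ratio of FPKM (vertical axis) between pairs of members within each library, by group. Points are libraries, bars are means and whiskers 1 SD (n = 3). RELB per RELA, NFKBIB per NFKBIA and NFKBIE per NFKBIA were highest in OGD, NFKBIZ per NFKBIA was highest in OGD/R (0.267 to 0.388), and NFKBIA per NFKB1 was highest in control.

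Libraries of a group differed in a shared way. OGD/R replicate 2 was the highest of its group in 8 of 10 members and OGD/R replicate 1 the lowest in 7. These libraries also had the largest (0.228) and the smallest (0.131) length slope of the OGD/R group. Control replicate 1 was the highest control in 8 members, and control replicate 3 the lowest in 6. The part of these library differences in the members' spread was not tested.

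The kappaB consensus was searched in both strands of RefSeq's promoter windows for GRCh38.p14, 250 bases before to 50 bases after each listed start, and overlapping matches were counted separately. Windows were found for 8 of 10 members, all except NFKBIE and RELB. A match stood in 7 of these 8 genes, in 9 of their 14 windows, against 11.3% of all 35116 windows and 13.3% of all genes with a window. RELA was the exception, with 0 matches in 2 windows. Of the NF-kB target list described below, 14 of 29 genes with a window held a match. A match describes the letters only. The stretches below show the matches that lie closest to a start of each gene, in capitals, with the first match from 21 to 223 bases before that start, and each is read 5′ to 3′ along the gene.

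NFKB1, plus strand, chr4:102501300-102501329: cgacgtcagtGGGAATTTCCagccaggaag
NFKBIZ, plus strand, chr3:101827757-101827786: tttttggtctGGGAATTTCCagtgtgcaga
NFKBIB, plus strand, chr19:38899932-38899961: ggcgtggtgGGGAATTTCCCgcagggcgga
NFKB2, plus strand, chr10:102395674-102395703: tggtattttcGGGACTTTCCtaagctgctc
REL, plus strand, chr2:60881518-60881547: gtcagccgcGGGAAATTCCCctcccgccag
TNFAIP3, plus strand, chr6:137867188-137867217: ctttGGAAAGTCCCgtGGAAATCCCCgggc

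The same letters GGGAATTTCC stood before NFKB1, NFKBIZ and NFKBIB on the strand of the gene. They also stood before NFKBIA and REL on the opposite strand, where they read GGAAATTCCC along the gene. NFKB1, NFKBIZ and NFKBIA rose in OGD/R over OGD, and REL was called higher there only with no expression filter. NFKBIB was not called in that comparison (0.22, 95% interval -0.05 to 0.49, adjusted p = 0.122). With only those groups fitted NFKBIB was called higher (adjusted p = 0.0411), and its OGD/R libraries all lay above its OGD libraries. TNFAIP3 held a pair of matches side by side, in capitals, on the strand opposite to the gene. RELA rose in OGD/R with no match in its windows. Sites outside the windows were not searched, and the part of any match in these changes was not tested.

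Other proteins of the pathway were grouped in lists. Of all genes 11.3% were higher and 46.7% lower in OGD against control, and 53.3% and 17.4% in OGD/R against OGD. In OGD/R against control these shares were 24.7% and 16.5%. After median-of-ratios scaling they were, in the same order, 26.5% and 23.1%, 32.6% and 34.2%, and 22.1% and 23%. Among 8 regulators related to the IkB proteins, 1 was higher and 4 lower in OGD against control, 2 higher and 2 lower in OGD/R against OGD, and 1 higher and 2 lower in OGD/R against control. BCL3, a nuclear IkB protein that binds p50 and p52 dimers, measured 11.8, 11.6 and 7.50 FPKM in control, 2.65, 2.38 and 2.43 in OGD, and 13.4, 15.1 and 13.5 in OGD/R. It fell in OGD (-1.68, adjusted p = 8.97e-06) and rose in OGD/R over OGD (2.11, adjusted p = 4.12e-07) and over control (0.43, adjusted p = 0.0417). The list median was -0.24 in OGD against control, 0.09 in OGD/R against OGD and -0.11 in OGD/R against control. COMMD1, which promotes ubiquitination of RELA, rose in OGD to 58.3 FPKM from 45.5 in control (adjusted p = 0.0115). It fell below control in OGD/R, to 36.4 FPKM (adjusted p = 0.0333). The BCL3 and COMMD1 calls in OGD/R against control were not made under every alternative, since this list had 0 calls there without control replicate 3.

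Of 17 IkB kinase subunits and upstream kinases, 0 were higher and 9 lower in OGD against control (list median -0.37), where 46.7% of all genes were lower. With median-of-ratios scaling 2 were higher and 4 lower there. After reoxygenation 13 were higher and 0 lower than in OGD (0.59), where 53.3% of all genes were higher. Against control 4 were higher and 0 lower (0.17), near the 24.7% of all genes that were higher. RIPK1, a scaffold kinase at the tumour necrosis factor receptor, rose from 5.58 ± 0.947 FPKM in control to 11.3 ± 2.64 in OGD/R (SD, n = 3, 0.89, adjusted p = 0.00141). IRAK2, a kinase of the interleukin 1 and Toll-like receptor route, rose from 2.95 ± 0.365 to 6.78 ± 1.18 FPKM (0.97, adjusted p = 0.000590). The catalytic subunits CHUK and IKBKB and the scaffold IKBKG were not called in OGD/R against control, with fold changes of -0.24, 0.41 and 0.38. With median-of-ratios scaling this list split into 4 higher and 4 lower in OGD/R against control, and without control replicate 3 into 4 higher and 3 lower.

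Of 24 tested receptors and adaptors, 2 were higher and 12 lower in OGD against control (list median -0.40), near the 46.7% of all genes lower. That split was 4 higher and 6 lower with median-of-ratios scaling, 5 and 4 with quantile normalization, and 6 and 6 with the length trend removed. Each of these settings also gave more higher calls and fewer lower calls over all genes. Of the 24 receptors and adaptors 19 were higher and 1 lower in OGD/R than in OGD (0.69), where 53.3% of all genes were higher. Against control 12 were higher and 0 lower (0.38), where 24.7% of all genes were higher. TNFRSF1A, the main receptor for tumour necrosis factor, fell in OGD from 33.6 ± 5.79 to 14.3 ± 0.729 FPKM (-1.16, adjusted p = 2.35e-05), as did MYD88, the adaptor of Toll-like and interleukin 1 receptors, from 29.02 ± 2.61 to 13.2 ± 0.184 (-1.08, adjusted p = 1.37e-05). TNFRSF12A, the receptor for TWEAK, rose from 217 ± 33.7 to 352 ± 11.6 FPKM (0.71, adjusted p = 0.000492) and measured 205 ± 23.1 in OGD/R, where it was not called against control (-0.07, adjusted p = 0.657). CD40 rose over control in OGD/R from 10.3 ± 1.51 to 16.3 ± 1.91 FPKM (0.62, adjusted p = 0.00331) and LTBR, the lymphotoxin beta receptor, from 32.1 ± 7.19 to 50.5 ± 5.34 (0.65, adjusted p = 0.00236). Both receptors feed the NIK route, whose kinase gene MAP3K14 rose from 2.18 to 3.70 FPKM (0.56, adjusted p = 0.0118). Whether that route was active was not tested. TICAM1 (0.74, adjusted p = 0.00226) and CARD10 (0.72, adjusted p = 0.00102) rose over control by more than CD40 and LTBR. BIRC3 (0.90, adjusted p = 0.000309), TRAF3 (0.55, adjusted p = 0.00818) and BIRC2 (0.35, adjusted p = 0.0209) were also higher there. TRAF2 was not called there (0.11, adjusted p = 0.698).

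Of 19 tested genes of ubiquitin editing and the linear ubiquitin ligase, 0 were higher and 10 lower in OGD against control (list median -0.33). Of all genes 46.7% were lower there. The list's split was 6 higher and 5 lower with median-of-ratios scaling, and 3 and 3 with the length trend removed. Both settings also gave more higher calls and fewer lower calls over all genes. OGD/R had 12 higher and 1 lower than OGD (0.70), where 53.3% of all genes were higher. It had 7 higher and 2 lower than control (0.19), where 24.7% of all genes were higher. With median-of-ratios scaling 8 were higher and 7 lower than in OGD. TNIP1, which recruits A20 to its substrates, measured 25.8, 26.9 and 22.5 FPKM in control, 17.9, 18.7 and 17.8 in OGD, and 54.9, 55.5 and 52.8 in OGD/R. Its groups did not overlap, and it rose by 1.09 over control (SE 0.09, adjusted p = 9.85e-06). CYLD, a deubiquitinase that restrains the pathway, rose from 6.39 ± 1.58 to 11.1 ± 1.44 FPKM (0.73, adjusted p = 0.0119). RNF31 had the largest fold change of this list in OGD/R against control (1.77, adjusted p = 0.00928), but its libraries ranged from 1.90 to 9.20 FPKM in OGD/R and from 0.162 to 1.38 in control.

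Of 29 tested NF-kB target genes, 7 were higher and 8 lower in OGD against control (list median -0.01, relative median 0.30), where 11.3% of all genes were higher and 46.7% lower. Against OGD, 22 targets were higher and 2 lower in OGD/R (median 0.79), and against control 21 were higher and 0 lower (median 0.67, relative median 0.61). Of all genes 53.3% and 24.7% were higher in these comparisons. The targets split in OGD. IL1B measured 24.5, 28.6 and 27.0 FPKM in control, 139, 142 and 134 in OGD, and 73.2, 79.5 and 71.7 in OGD/R. Its groups did not overlap, with OGD highest. IRF1, an interferon regulatory factor, fell in OGD from 12.8 ± 1.49 to 5.47 ± 0.177 FPKM (-1.08, adjusted p = 1.70e-05), and IL6, a cytokine gene dependent on IkB-zeta, was not called there (41.4 ± 3.95 and 44.0 ± 2.79 FPKM). In OGD/R IL6 measured 113, 145 and 124 FPKM and rose by 1.60 over control (adjusted p = 2.54e-06). The adhesion molecule gene ICAM1 rose over control by 1.65 (adjusted p = 2.54e-06) and the cytokine gene LIF by 1.86 (adjusted p = 1.40e-05). With median-of-ratios scaling the OGD split of this list was 14 higher and 5 lower, where 26.5% of all genes were higher and 23.1% lower.

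**Figure D4:**
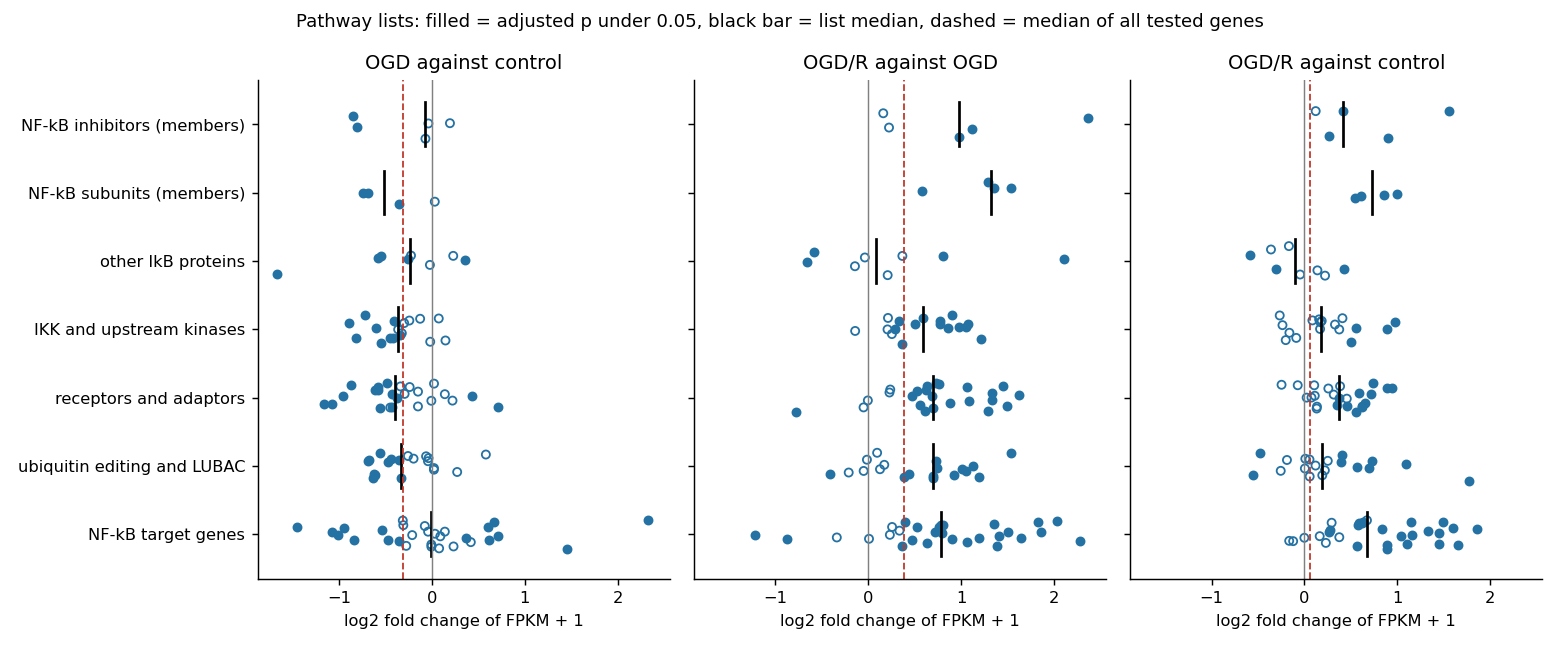
Log2 fold change of FPKM + 1 (horizontal axis) of each tested gene in the members' groups and in the pathway lists, for the 3 comparisons. Filled points were called, black bars are list medians and the dashed line is the median of all genes tested. In OGD/R against control the target genes had a median of 0.67 and the subunits of 0.73, against 0.07 for all genes.

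The genes whose pattern was most like a member's were found by Pearson correlation of log2 values over the 9 libraries, among 7330 genes with a mean of at least 5 FPKM. The libraries form 3 groups, so many genes score highly. NFKBIA was matched best by MLF2 (r = 0.998), KIF20A (0.996) and MYD88 (0.996). NFKBIZ was matched by STC1 (0.997), KLF6 (0.997) and GLG1 (0.996), and RELA by RBFOX2 (0.998), LASP1 (0.997) and SELENON (0.997). NFKB1 was nearest to RAE1 (0.995), SPARC (0.994) and SCAF8 (0.993), and NFKB2 to ATN1 (0.999), KDM5C (0.998) and CEP89 (0.997). RELB followed PLAUR (0.979), TPM2 (0.977) and ARF1 (0.975), TNFAIP3 followed CSGALNACT2 (0.988), EPAS1 (0.987) and CPA4 (0.986), and NFKBIB followed PES1 (0.940), OAF (0.937) and CCT7 (0.932). Within the members, NFKBIZ and NFKB1 were closest (r = 0.986), followed by NFKB2 with RELA (0.980) and NFKB2 with NFKBIZ (0.980), and NFKBIA with NFKBIB was the least alike (0.277).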

How the data were processed

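Total RNA of 9 libraries was made into sequencing libraries with a SMARTer kit, per the labels' protocols. The authors deposited 1 table of FPKM values, with 1 column per library, all of which matched a sample by library name. The build was GRCh38, per the submitters' processing notes. For the aligner, counter, annotation and strand setting, the sources used here name none. Whole reads could not be recovered: among genes below 0.1 FPKM, the commonest ratio between a pair of libraries held 0.777% to 1.37% of genes, so depth is unknown.

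Genes at 1 FPKM or more in 3 of 9 libraries entered limma 3.58.1 (R 4.3.3) as log2(FPKM + 1), in 1 fit of 3 groups (eBayes with an intensity trend, 6 residual degrees of freedom), with no further scaling. P-values are 2-sided and adjusted by Benjamini-Hochberg over 10818 genes. The script was tested on simulated data. Nothing states that replicates were separate cultures, so the spread behind each p-value is that of these libraries and may be technical.

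The members and lists were chosen with earlier results of these data known. Of each pathway list, up to 4 called genes of at least 5 FPKM with groups that did not overlap were to be named by size. Only some of these were named, so the genes named are not always the largest. Left out were, among others, IL1A, TNFAIP2, CSF1, PLAU, NKIRAS1, MAP3K3, TAB2, IKBKE and UBE2V1. Further genes were named after their values were seen: CHUK, IKBKB, IKBKG, MAP3K14, TRAF2, TRAF3, BIRC2 and BIRC3. So were IL6 and TNFRSF12A in comparisons where they were not called. The ratios were also chosen after seeing the values. Coordinates and promoters are RefSeq's for GRCh38.p14. Transcript lengths, used for the length slopes and in 1 alternative, are the longest coding transcript in GENCODE 29.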

Additional observations from a re-analysis of the deposited data

How the results depend on the processing

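Under 20 alternatives (other filters, pseudocounts, scalings, priors, a replicate block, and leaving out each library), members called were counted over both directions. Their number stayed within 1.5 times its value in all 3 comparisons, but directions changed. In OGD against control, 0 higher and 5 lower became 3 higher and 4 lower with median-of-ratios scaling or quantile normalization. Over all genes, both settings likewise gave more higher calls and fewer lower calls there. Leaving out 1 library gave 4 to 5 members in OGD against control, 7 in OGD/R against OGD and 6 to 8 in OGD/R against control. Without control replicate 1 the split in OGD against control was 1 higher and 4 lower. Some fold changes turned sign, among them the called fall of NFKB1 and values of NFKBIE that were called in the new direction. In OGD against control, NFKBIE read 0.29 after median-of-ratios scaling, 0.34 after quantile normalization and 0.16 after length trend removal, and from -0.12 to 0.045 without 1 library. NFKB1 read 0.037 after quantile normalization. TNFAIP3 read 0.17, 0.27 and 0.29 under those 3 scalings and from -0.19 to 0.027 without 1 library, and RELB from -0.056 to 0.11 without 1 library. In OGD/R against OGD, NFKBIB read -0.21 (median of ratios) and -0.22 (quantile), and NFKBIE -0.26, -0.35 and -0.066 under the 3 scalings. In OGD/R against control NFKBIE read -0.017 after quantile normalization. The cause was not tested.

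Nothing states that the replicate numbers pair the libraries. Correlations of same-numbered deviations over all genes tested ran from -0.200 to 0.148. They cannot decide whether a pairing exists, since differences of whole libraries enter them. With the replicate block 4, 7 and 7 members were called, and NFKB1 in OGD against control (adjusted p = 0.0502) and NFKBIA in OGD/R against control (0.0694) were lost.

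Counts of some pathway lists moved by over 1.5 times. In OGD against control, quantile normalization took the kinases from 9 called to 5, receptors and adaptors from 14 to 9 and ubiquitin editing from 10 to 3, and length trend removal took the last to 6. IkB-related regulators went from 5 to 3 after length trend removal and without control replicate 2 or 3 or OGD replicate 3. In OGD/R against OGD, quantile normalization took kinases from 13 to 8, receptors from 20 to 13 (13 also at 5 FPKM) and ubiquitin editing from 13 to 7, and median-of-ratios scaling took IkB-related regulators from 4 to 7. In OGD/R against control, kinases went from 4 to 8 after median-of-ratios scaling or quantile normalization and to 7 without control replicate 1 or 3 or with the length trend removed. IkB-related regulators went from 3 to 0 with no filter, when control replicate 3 was left out, and when OGD/R replicate 3 was, and to 1 with only those groups fitted and without OGD replicate 3 or OGD/R replicate 1 or 2.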
